A study of Mus musculus with 6 samples.

Results

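The proteasome and the cytosolic chaperonin CCT were followed at the level of ribosome-bound mRNA in the mouse choroid plexus (ChP) at 2 ages. Members were the genes whose symbol begins with Psma, Psmb, Psmc, Psmd, Psme, Psmf or Psmg and a digit, without the immunoproteasome genes Psmb8, Psmb9 and Psmb10, together with genes beginning with Cct and a digit, and Tcp1. This gave 57 of the 24354 genes in the table: 46 genes of the proteasome, its activators and its assembly factors, 10 genes of CCT, and Psmc3ip, which met the rule through its symbol and encodes a partner of meiotic recombinases rather than a subunit.

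The proteasome degrades proteins tagged with ubiquitin. Its 20S core is a barrel of alpha and beta subunits with the proteolytic sites inside, and the 19S particle caps the barrel, binds the tagged substrate and uses ATPases to unfold it and thread it in. CCT, also called TRiC, is a ring-shaped ATPase that folds actin and tubulin, among other proteins, and each ring is built from a set of related but distinct subunits. Complexes of this kind need their subunits in fixed proportions, and surplus subunits are usually degraded. The choroid plexus is the secretory epithelium that makes cerebrospinal fluid, and before birth it is still adding cells.

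Translating ribosome affinity purification (TRAP) recovers mRNA bound to ribosomes that carry an EGFP-tagged L10a protein, here in mice of genotype FoxJ1:cre x bacTRAP (EGFP:L10a), so that recombination driven by the Foxj1 promoter decided which cells were sampled. Cells that never expressed Foxj1 are outside this measurement, apart from background carried through the purification. The 3 adult libraries came from animals 60 days old (P60) and the 3 E16.5 libraries from embryos at day 16.5, and all 6 shared the genotype and had no treatment. The study's methods describe each sample as lateral ventricle tissue pooled from several adult mice or litters while the series text counts 3 mice per age, so the number of animals behind a replicate is not settled, the sex of the animals in each pool is not stated, and p-values measure the spread between these samples only.

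Adult libraries were shallower than E16.5 libraries. The shallowest was adult replicate 3, against which adult replicates 1 and 2 had 1.26 and 2.85 times as many reads and the E16.5 libraries between 4.0 and 5.08 times, as estimated from the steps between low values. The microRNA gene Mir6236 held 32.7% to 51.7% of the summed FPKM in adult libraries and 13.3% to 15.0% at E16.5. A value of 0 stood for 22.0%, 10.3% and 36.4% of tested genes in adult replicates 1, 2 and 3, and for 3.68% to 4.02% in the E16.5 libraries. The 14 ChP epithelial markers summed to 40765 to 56104 FPKM in adult and 5604 to 6355 at E16.5, and to 19843 to 24802 in adult without Ttr. Without Ttr and Enpp2 they summed to 4956, 6070 and 4693 FPKM in adult and 6113, 5901 and 5330 FPKM at E16.5, and the ages overlapped. Ttr, the transthyretin gene that defines this epithelium, was listed at 0 in all 3 E16.5 libraries, and in a file without read counts such a 0 can be a failed estimate, here and for the genes described further on. Of these markers 5 were called higher in adult (Ttr, Kl, Kcnj13, Enpp2 and Prlr) and 3 higher at E16.5 (Calml4, Kcne2 and Otx2). Fewer cells of a type and less RNA per cell cannot be told apart in bulk samples such as these.

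Most proteasome and CCT genes had lower values in adult than in E16.5 ChP. Of the 57 members 52 had a mean above 1 FPKM over the 6 libraries and were tested, and 46 of these (88.5%) had a negative log2 change (adult minus E16.5, on the log2(FPKM + 1) scale), as did 72.8% of all genes tested. The median change over the 52 was -1.47, beside -0.86 over all 11601 genes tested, and 41 members lay below the latter. In 29 of the 52 members (55.8%) every adult library was below every E16.5 library, against 31.0% of all genes, and in none was every adult library above every E16.5 library, against 7.39% of all genes. With adult replicate 2 alone, the deepest adult library, 36 of 52 members (69.2%) were below every E16.5 library, against 46.7% of all genes, and the median change was -0.86 for members and -0.43 for all genes.

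By limma with adjusted p under 0.05, 7 of 52 members (13.5%) were higher at E16.5, against a background of 8.83% of all genes: Psma2, Psma3, Psmb1, Psmd13, Tcp1, Cct7 and Psmc3ip. Leaving out Psmc3ip left 6 of 51 (11.8%), which is close to the background. No member was higher in adult at that threshold (background 2.12%) or at an unadjusted p under 0.05, whereas 29 members (55.8%) were higher at E16.5 at an unadjusted p under 0.05, against 25.9% of all genes. The number called depended on single libraries. Without adult replicates 1, 2 and 3 in turn it was 5, 15 and 19 (9.62%, 28.8% and 36.5% of members), against 4.63%, 14.7% and 11.6% of all genes. Without E16.5 replicates 1, 2 and 3 it was 1, 0 and 1 (1.92%, 0% and 1.92% of members), against 0.22%, 0.14% and 0.565% of all genes. Without E16.5 replicate 2, where limma called none, 20 members were higher at E16.5 at an unadjusted p under 0.05. When every library was rescaled to the same sum of FPKM, 32 members (61.5%) were called, against 27.9% of all genes. When Mir6236 was left out of that sum, 15 members (28.8%) were called, against 11.5% of all genes.

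**Figure D1:**
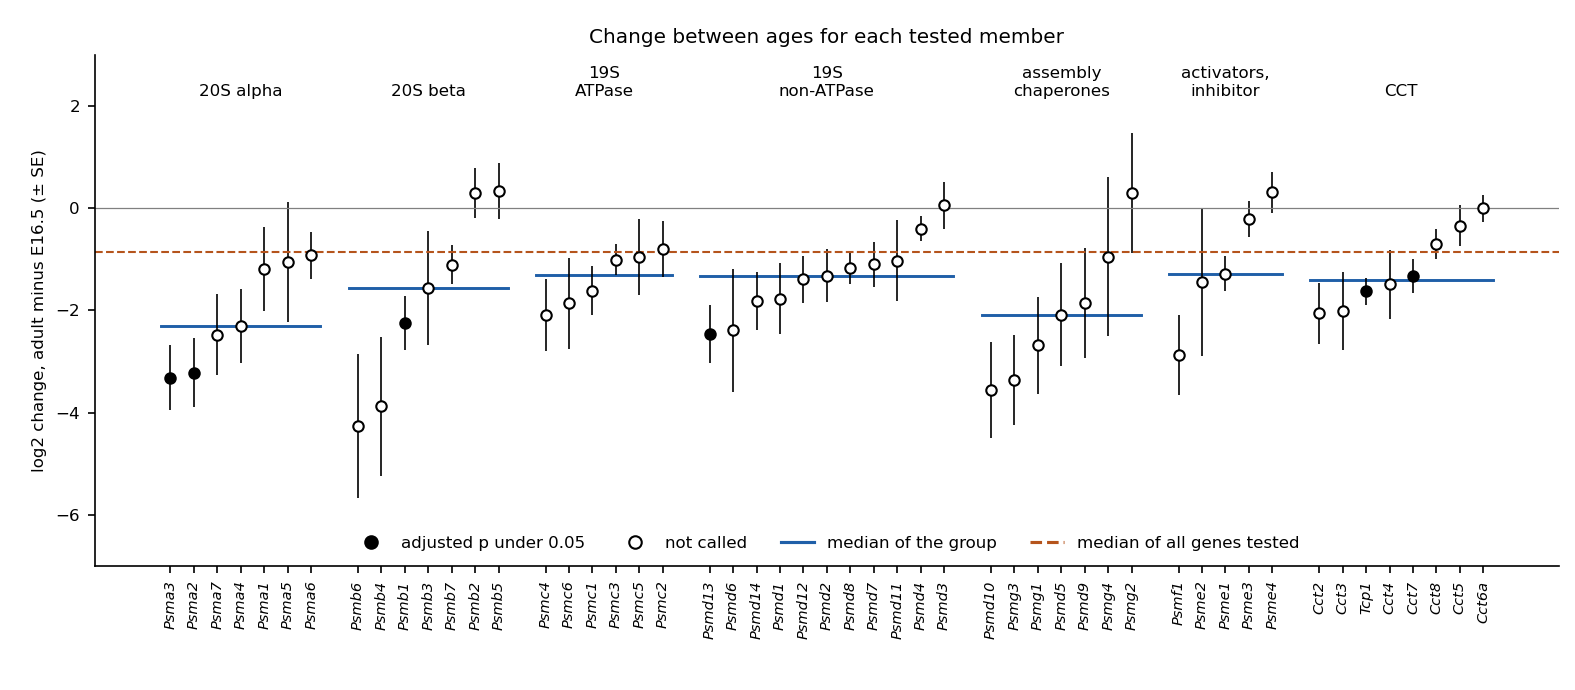
Log2 change between ages (adult minus E16.5, points, with the standard error from limma as bars) of 51 tested members by role, without Psmc3ip. Filled points passed the adjusted threshold. The group medians (blue lines) all lie below the median of all genes tested (dashed line, -0.86), and the positive values, of Psmb5, Psmb2, Psmg2, Psme4, Psmd3 and Cct6a, are smaller than their standard errors.

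The alpha subunits of the 20S core had the lowest median of the subunit groups. All 7 tested alpha genes had negative changes, against 72.8% of all genes, with a median of -2.30. Psma2 and Psma3 passed the test (28.6%, against 8.83% of all genes). Positions of the called genes are in mm10, the build of the files, from the GENCODE annotation. Psma2, on chr13:14613240-14674236, was 4.47, 37.3 and 10.99 FPKM in adult replicates 1 to 3 and 132, 97.3 and 154 FPKM at E16.5. Every adult value of Psma2 was far below the lowest E16.5 value, and it fell by 3.22 on the log2 scale (SE 0.68, adjusted p = 0.0296, called under 12 of 16 alternatives). Psma3, on chr12:70974621-70996347, was listed at 0, 0.0926 and 0 FPKM in adult and was 11.1, 5.09 and 13.7 FPKM at E16.5. The single adult value above 0 stands for about 2 reads if a transcript of 2846 bases is assumed. Psma3 was thus nearly undetected in adult, and it was low at E16.5 too for a core subunit. Its log2 change was -3.32 (SE 0.64, adjusted p = 0.0238, called under 9 of 15 alternatives), a value that depends on the pseudocount.

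Psma6 and Psma7 carried the highest alpha levels. Psma6 was 53.4, 159 and 66.2 FPKM in adult and 220, 124 and 142 FPKM at E16.5, so adult replicate 2 fell within the E16.5 range and the ages overlapped (log2 change -0.92, SE 0.46, adjusted p = 0.209). Psma7 was 7.84, 30.9 and 103 FPKM in adult and 178, 203 and 136 FPKM at E16.5. Here the ages did not overlap, but the adult libraries were spread widely and the gene did not pass (log2 change -2.47, SE 0.80, adjusted p = 0.0850). Psma8, the testis-specific relative of Psma7, was listed at 0 in all 6 libraries. Psma5 was 1.76, 21.9 and 0 FPKM in adult and 15.2, 4.74 and 5.02 FPKM at E16.5, low and overlapping.

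The 7 tested beta subunits had a median change of -1.56, and the genes for the proteolytic subunits ranged from the lowest to the highest change of any subunit. Psmb6, the caspase-like subunit, was 0, 34.0 and 71.0 FPKM in adult and 325, 248 and 220 FPKM at E16.5. Every adult value was far below the lowest E16.5 value, yet the spread of the adult libraries left its change of -4.26 above the threshold (SE 1.42, adjusted p = 0.0908). Psmb7, the trypsin-like subunit, was 49.0, 64.6 and 111 FPKM in adult and 133, 207 and 130 FPKM at E16.5 (log2 change -1.10, SE 0.38, adjusted p = 0.1001). Psmb5, the chymotrypsin-like subunit, was 16.4, 54.0 and 35.2 FPKM in adult and 26.5, 15.5 and 36.7 FPKM at E16.5. The ages overlapped for Psmb5, and its change of 0.34 was the highest of all members (SE 0.54, adjusted p = 0.691), though 57.1% of the 50-base stretches of its transcript also occur in other annotated genes.

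Of the structural beta subunits only Psmb1 passed the test. Psmb1, on chr17:15475021-15499751, was the most abundant core subunit at E16.5. It was 85.2, 99.9 and 24.3 FPKM in adult and 354, 305 and 215 FPKM at E16.5. Its adult values all lay below the E16.5 values, and it fell by 2.25 on the log2 scale (SE 0.54, adjusted p = 0.0401, called under 6 of 16 alternatives). Psmb4 was 21.9, 104 and 0.438 FPKM in adult and 258, 267 and 159 FPKM at E16.5. The lowest adult value of Psmb4 stands for about 1 read, and the gene did not pass (log2 change -3.88, SE 1.36, adjusted p = 0.103). Psmb2 went the other way in level, at 94.0, 61.3 and 239 FPKM in adult and 79.6, 102 and 90.8 FPKM at E16.5, and was the most abundant core subunit in adult by its mean. Adult replicate 3 alone exceeded all other libraries for Psmb2 (log2 change 0.30, SE 0.49, adjusted p = 0.698), and its change was -0.25 without that library. Psmb3 was low, at 11.6, 22.0 and 0 FPKM in adult and 23.9, 15.0 and 17.6 FPKM at E16.5, with overlapping ages. Psmb11, the thymus-specific beta subunit, was listed at 0 in all 6 libraries.

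**Figure D2:**
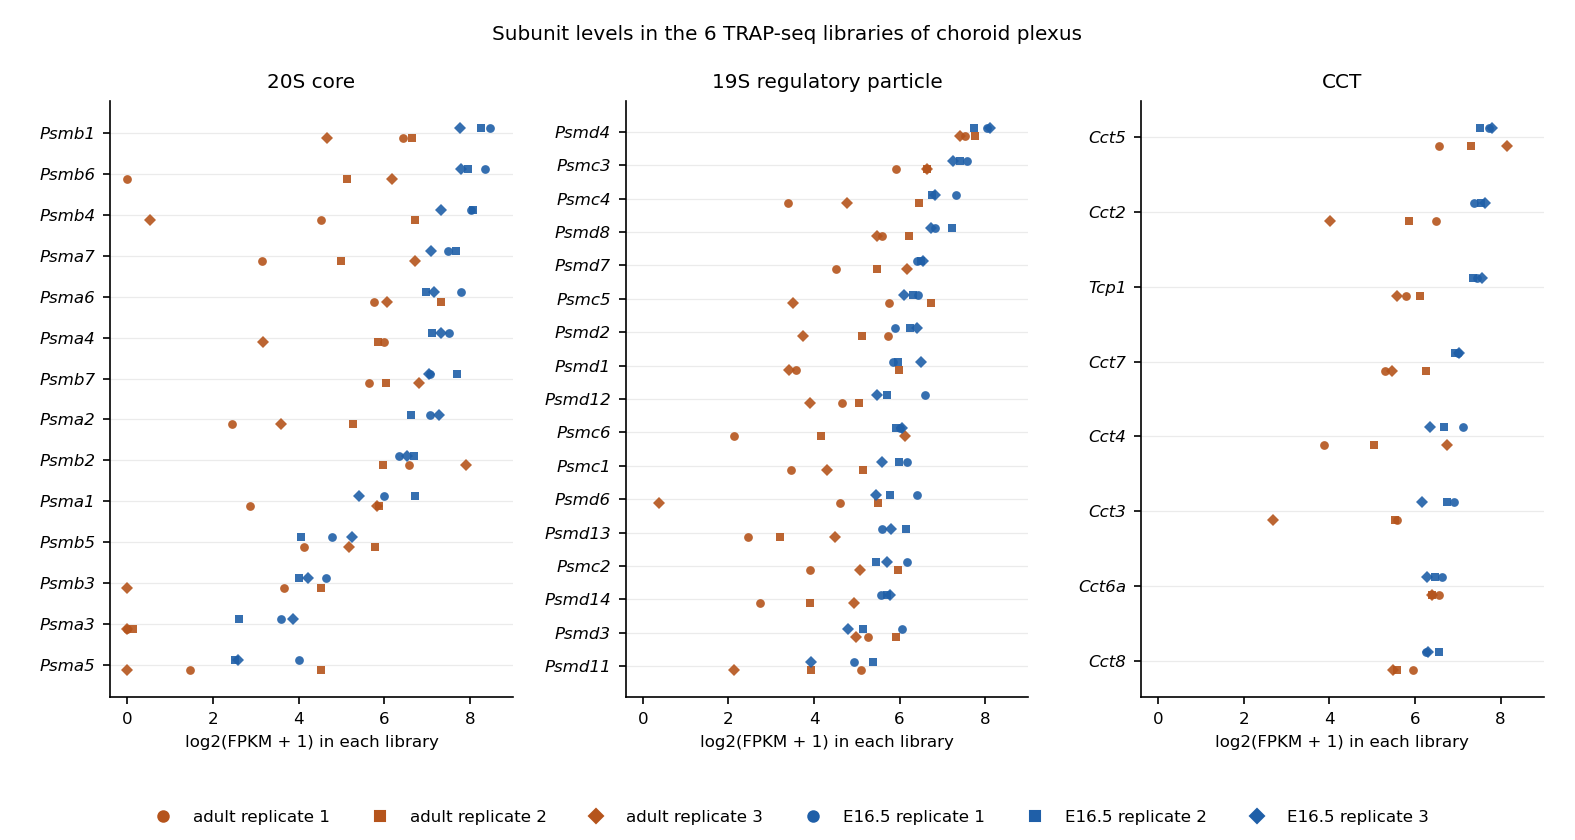
Levels of the 39 tested subunits of the 20S core, the 19S particle and CCT in each library, as log2(FPKM + 1), with genes ordered by their mean at E16.5 and a marker for each replicate. E16.5 libraries (blue) lie close together for most genes, while the adult libraries (brown) spread to the left, down to 0 for Psmb6, Psmb3, Psma3 and Psma5.

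The promoters of Psmb6 and Psmb5 are shown because both hold the core letters of the antioxidant response element, TGACNNNGC, which the proteasome gene activator NRF1 is known to bind, and because these catalytic subunits had the lowest and the highest change of all subunits. The sequences are the 120 bases before the RefSeq start of Psmb6 and a stretch of the same length ending 28 bases before the start of Psmb5, both upstream of annotated exons, in the GRCm38.p6 build, and capitals mark the match.
Psmb6 (chr11:70525237-70525356, plus strand): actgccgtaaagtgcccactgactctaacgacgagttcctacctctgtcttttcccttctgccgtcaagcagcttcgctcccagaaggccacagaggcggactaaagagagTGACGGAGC
Psmb5 (chr14:54618023-54618142, minus strand): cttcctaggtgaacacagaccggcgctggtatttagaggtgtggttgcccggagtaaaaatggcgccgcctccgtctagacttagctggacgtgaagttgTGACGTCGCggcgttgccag

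The ATPases of the 19S particle form the ring that unfolds substrates. All 6 had negative changes, against 72.8% of all genes, with a median of -1.31. None passed the adjusted test, while 3 (50%) had an unadjusted p under 0.05, against 25.9% of all genes. Psmc3 was the most abundant ATPase at both ages, at 59.7, 98.9 and 98.7 FPKM in adult and 188, 168 and 151 FPKM at E16.5. Its ages did not overlap, and its change was -1.003 (SE 0.30, adjusted p = 0.0707). Psmc4 had the lowest change of the ATPases, at 9.52, 86.0 and 26.5 FPKM in adult and 157, 108 and 112 FPKM at E16.5 (log2 change -2.09, SE 0.70, adjusted p = 0.0949). Psmc2 had the highest, at 13.9, 61.2 and 32.5 FPKM in adult and 70.7, 42.8 and 51.1 FPKM at E16.5, with overlapping ages (log2 change -0.80, SE 0.55, adjusted p = 0.347).

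The non-ATPase subunits of the 19S particle hold the ubiquitin receptors, the scaffold and the deubiquitinase. Of 11 genes 10 (90.9%, against 72.8% of all genes) had negative changes, with a median of -1.32. Psmd13 passed (9.09%, against 8.83% of all genes). Psmd13, a subunit of the lid on chr7:140881968-140898643, was 4.504, 8.29 and 21.4 FPKM in adult and 47.2, 69.5 and 55.0 FPKM at E16.5. The ages were well apart, and it fell by 2.46 on the log2 scale (SE 0.56, adjusted p = 0.0367, called under 6 of 16 alternatives). Psmd14, the lid deubiquitinase that removes ubiquitin from the substrate, was 5.72, 13.99 and 29.8 FPKM in adult and 46.1, 50.9 and 53.8 FPKM at E16.5, apart in the same way but not called (log2 change -1.81, SE 0.57, adjusted p = 0.0800). Psmd4, a ubiquitin receptor also known as Rpn10, was the most abundant 19S subunit at both ages, at 183, 216 and 169 FPKM in adult and 261, 213 and 274 FPKM at E16.5. Adult replicate 2 exceeded E16.5 replicate 2, so the ages overlapped (log2 change -0.40, SE 0.24, adjusted p = 0.293), and Psmd4 made up 30.9%, 21.5% and 25.6% of the summed 19S FPKM in adult and 16.6%, 15.2% and 19.97% at E16.5. Psmd3, another lid subunit, overlapped between ages, at 37.4, 59.5 and 30.6 FPKM in adult and 65.5, 34.5 and 26.6 FPKM at E16.5 (log2 change 0.06, SE 0.45, adjusted p = 0.941).

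The dedicated assembly chaperones build the core and the ATPase ring and then leave. Of 7 genes 6 (85.7%, against 72.8% of all genes) had negative changes, and the median was -2.08. None passed the adjusted test, and 6 of the 7 were listed at 0 in at least 1 adult library. Psmd10, a chaperone of the ATPase ring also called gankyrin, was 0, 7.30 and 0 FPKM in adult and 23.0, 31.5 and 16.4 FPKM at E16.5, the lowest change of the group and just outside the threshold (log2 change -3.56, SE 0.94, adjusted p = 0.0510). Psmg3, which acts on the alpha ring, was likewise listed at 0, 1.42 and 0 FPKM in adult and was 21.4, 24.4 and 3.52 FPKM at E16.5 (log2 change -3.35, SE 0.88, adjusted p = 0.0509). Both were above 0 in the deepest adult library alone. The alpha ring chaperone Psmg1 was 0, 5.48 and 0 FPKM in adult and 8.66, 6.38 and 23.2 FPKM at E16.5, and Psmg2, its binding partner, was 13.4, 5.40 and 9.92 FPKM in adult and 26.8, 15.6 and 0.158 FPKM at E16.5. The E16.5 replicate 3 value of Psmg2 stands for about 2 reads, and the change of 0.31 (SE 1.17, adjusted p = 0.874) became -1.10 without that library. Of the rest, Psmd5 was 10.55, 11.3 and 0 FPKM in adult and 27.98, 24.7 and 13.5 FPKM at E16.5, Psmd9 was 0, 3.59 and 20.4 FPKM and 23.4, 12.3 and 13.3 FPKM, and Psmg4 was 0, 20.5 and 0 FPKM and 23.2, 0 and 5.44 FPKM. None of these 3 passed, and ages overlapped in Psmd9 and Psmg4.

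The activators that cap the core in place of the 19S particle, and the inhibitor Psmf1, had a median change of -1.28 over 5 tested genes, none of which passed the adjusted test. Psme1 and Psme2 encode the alpha and beta chains of the PA28 activator, which form a joint ring. Psme1 was 82.8, 47.1 and 86.5 FPKM in adult and 174, 215 and 132 FPKM at E16.5, without overlap (log2 change -1.28, SE 0.35, adjusted p = 0.0545). Psme2 was 0.430, 16.1 and 104 FPKM in adult and 13.9, 68.7 and 49.9 FPKM at E16.5, with no order between ages (log2 change -1.45, SE 1.44, adjusted p = 0.506). Psme2 shared 59.3% of the 50-base stretches of its transcript with other annotated genes, among them its copy Psme2b, which was listed at 0 in all adult libraries and at 0.279, 0.591 and 2.14 FPKM at E16.5, so reads could have been split between them. Psmf1, known as PI31, was 3.43, 2.75 and 0 FPKM in adult and 28.1, 16.9 and 11.5 FPKM at E16.5 (log2 change -2.87, SE 0.78, adjusted p = 0.0553). Psme4, the PA200 activator, had overlapping ages, at 27.5, 32.5 and 60.9 FPKM in adult and 26.7, 31.5 and 33.0 FPKM at E16.5 (log2 change 0.32, SE 0.40, adjusted p = 0.609), and Psme3, the nuclear PA28 gamma, was 27.5, 39.1 and 51.5 FPKM in adult and 47.8, 45.2 and 40.4 FPKM at E16.5.

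Of the 8 subunits of CCT that were tested, 7 had negative changes (87.5%, against 72.8% of all genes) with a median of -1.41, and in 5 every adult library was lower (62.5%, against 31.0% of all genes). Tcp1 and Cct7 passed the test. Tcp1, the alpha subunit, on chr17:12915701-12925067, was 54.4, 68.6 and 47.0 FPKM in adult and 175, 163 and 187 FPKM at E16.5. Both ages were tight and far apart, and Tcp1 fell by 1.63 on the log2 scale (SE 0.27, adjusted p = 0.0151, called under 12 of 16 alternatives). Cct7, the eta subunit, on chr6:85451514-85468475, was 38.2, 75.3 and 42.8 FPKM in adult and 127, 122 and 130 FPKM at E16.5. It fell by 1.32 on the log2 scale (SE 0.33, adjusted p = 0.0458, called under 6 of 16 alternatives). Cct2, the beta subunit, had the lowest change of the group, at 89.2, 57.2 and 15.2 FPKM in adult and 166, 185 and 197 FPKM at E16.5, but its adult values were spread widely (log2 change -2.06, SE 0.60, adjusted p = 0.0655). Relative to the median of all genes the CCT median was -0.55, but 0.041 with a pseudocount of 0.01. Transcripts of Tcp1, Cct7 and the lid gene Psmd13 share 22.2%, 8.28% and 15.8% of their 50-base stretches with other genes, mostly neighbours that overlap them on the other strand.

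Cct3, Cct4 and Cct8, the gamma, delta and theta subunits, had changes of -2.01, -1.49 and -0.70 and did not pass (adjusted p = 0.127, 0.181 and 0.153), and only Cct4 overlapped between ages. Cct6a and Cct5 had the changes nearest to 0. Cct6a, the zeta subunit, was 94.0, 83.3 and 83.9 FPKM in adult and 98.5, 87.6 and 76.1 FPKM at E16.5, with a change of 0.00056 (SE 0.26, adjusted p = 0.999). All adult values lay within the E16.5 range, and Cct6a made up 19.1%, 14.7% and 13.3% of the summed CCT FPKM in adult and 8.88%, 8.42% and 7.32% at E16.5. About 16.8% of the 50-base stretches of its transcript lie in the overlapping gene Psph on the other strand. Cct5, the epsilon subunit, was the most abundant CCT member at both ages, at 93.9, 157 and 285 FPKM in adult and 210, 182 and 221 FPKM at E16.5, and adult replicate 3 was the highest of all 6 libraries (log2 change -0.34, SE 0.40, adjusted p = 0.587). Cct6b, the testis form of the zeta subunit, was above 0 in E16.5 replicate 1 alone (3.68 FPKM), and Cct8l1, a relative of the theta subunit, was listed at 0 throughout.

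Cct2 is shown as the member with the lowest change of its complex. A promoter window at a RefSeq start inside the gene holds GAANNTTC, the core of the heat shock element bound by HSF1. The Cct2 window further upstream, at chr10:117063803-117064102, holds none. The 120 bases before the internal start, in the GRCm38.p6 build, fall between annotated exons of the longer and shorter transcripts of Cct2. Capitals mark the match, which reads as a match on both strands.
Cct2 (chr10:117063376-117063495, minus strand): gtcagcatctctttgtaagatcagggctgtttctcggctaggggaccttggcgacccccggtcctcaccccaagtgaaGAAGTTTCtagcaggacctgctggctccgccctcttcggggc

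Over all members the shares of promoters with such motifs were close to those of all genes. RefSeq windows of 250 bases before the start were found for 48 of the 57 members, and TGACNNNGC was present on either strand in 8 of them (16.7%), against 11.5% of all 27025 genes with a window. GAANNTTC was present in 4 (8.33%), against 7.73%, and CCAAT, the NF-Y motif, in 18 (37.5%), against 37.5%. CCAAT was in 5 of the 7 windows of alpha subunit genes (71.4%), and TGACNNNGC and GAANNTTC were in none of those 7. In the other roles, without Psmc3ip, the share with CCAAT ran from 16.7% (assembly chaperones, and activators and inhibitor) to 44.4% (CCT). TGACNNNGC was in 2 of 5 beta genes (40%) and 3 of 9 CCT genes (33.3%), and in 0% to 20% of each other role. GAANNTTC was in 1 of 5 beta genes (20%), 2 of 9 CCT genes (22.2%) and 1 of 6 activator and inhibitor genes (16.7%), and in no other role. All these groups are small. A match in these letters is a description and not a site of binding.

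Psmc3ip, also called Hop2, had the lowest change of all members although it is no part of either complex. It was listed at 0, 0.440 and 0 FPKM in adult and was 204, 94.5 and 56.2 FPKM at E16.5. The gene was thus nearly undetected in adult and well expressed in each E16.5 library (log2 change -6.52, SE 0.62, adjusted p = 0.00274, called under 14 of 15 alternatives). It lies at chr11:101091823-101095436 in mm10 on the minus strand, and 27.1% of the 50-base stretches of its transcript lie in Mlx, which overlaps it on the other strand. Mlx was 5.71, 11.9 and 6.87 FPKM in adult and 33.0, 22.8 and 10.48 FPKM at E16.5, and whether reads of either gene were counted for the other was not tested.

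When the subunits were summed, all 3 complexes were lower in adult without overlap between ages. The 20S core summed to 415, 804 and 726 FPKM in adult and 2000.2, 1834 and 1519 FPKM at E16.5, the 19S particle to 592, 1004 and 660.5 FPKM and 1577, 1406 and 1373 FPKM, and CCT to 491, 566 and 630 FPKM and 1110, 1041 and 1040 FPKM. The log2 differences were -1.51, -0.98 and -0.93 (exact permutation p = 0.1 for each, two-sided, the smallest that 3 against 3 libraries allow). Within a library the scaling cancels, but both ratios share the 20S sum. Of the 14 core subunits 2, 0 and 3 were listed at 0 in adult replicates 1, 2 and 3, and no 19S or CCT subunit was. The part of these zeros in the ratios was not tested. CCT stood to the 20S core as 1.18, 0.704 and 0.868 in adult and as 0.555, 0.567 and 0.685 at E16.5, a log2 difference of 0.58, and the 19S particle stood to the 20S core as 1.43, 1.25 and 0.910 in adult and as 0.788, 0.767 and 0.904 at E16.5, a log2 difference of 0.52 (exact permutation p = 0.1 for each). Every adult ratio was above every E16.5 ratio, by narrow margins for CCT in adult replicate 2 and for the 19S particle in adult replicate 3.

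**Figure D3:**
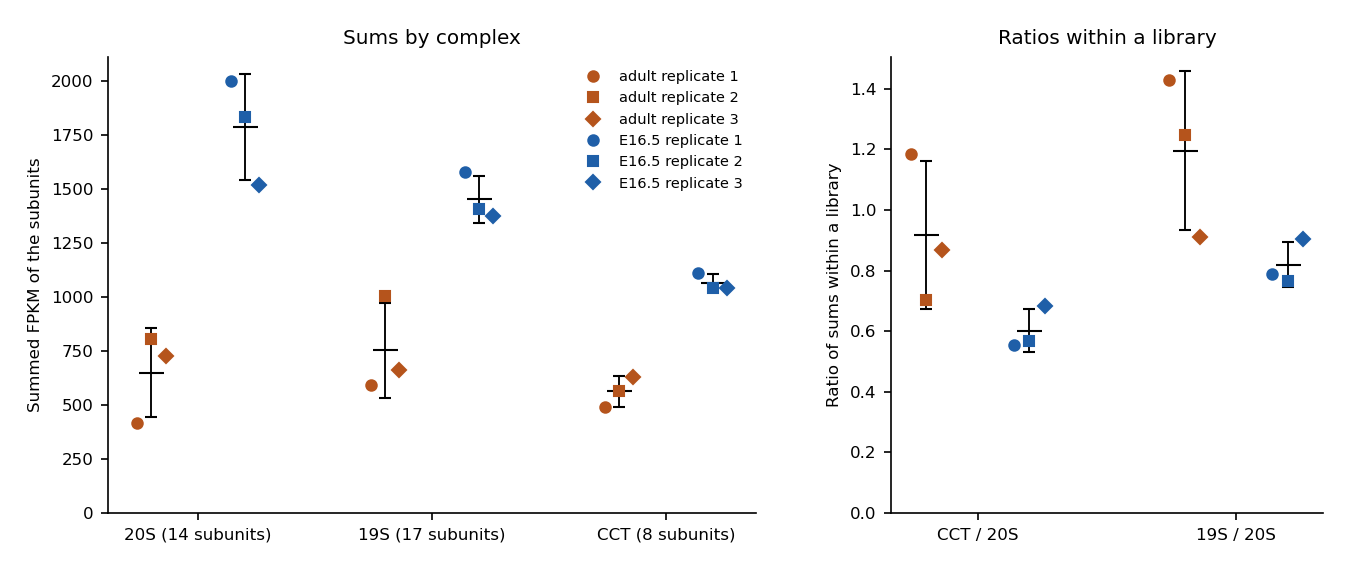
Summed FPKM of the subunits of each complex in each library (left), and the ratio of the CCT and 19S sums to the 20S sum within a library (right), with the mean (dash) and SD (bars) of 3 libraries per age. All sums are lower in adult (brown), and both ratios are higher, with adult 19S / 20S down to 0.910 beside 0.904 at E16.5.

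The 19S subunits were closer to each other in level in every E16.5 library than in any adult library. The SD of log2(FPKM + 1) over the 17 subunits of the 19S particle was 1.43, 1.19 and 1.69 in adult and 0.770, 0.727 and 0.954 at E16.5 (exact permutation p = 0.1). Over the 8 CCT subunits it was 0.899, 0.681 and 1.67 in adult and 0.471, 0.436 and 0.696 at E16.5, where adult replicate 2 fell within the E16.5 range (exact permutation p = 0.2), and over the 14 core subunits it was 2.23, 1.71 and 2.85 in adult and 1.65, 2.02 and 1.64 at E16.5 (exact permutation p = 0.2). Across these 39 subunits the levels in pairs of E16.5 libraries correlated with Pearson's r of 0.910 to 0.931, those in pairs of adult libraries with 0.350 to 0.706, and those between ages with 0.449 to 0.706. These correlations are across genes of the same libraries, which are not independent, and the adult libraries were the shallow ones. The share of each complex held by a gene varied accordingly, and Psmb2 made up 22.7%, 7.63% and 33.0% of the core in adult but 3.98%, 5.57% and 5.98% at E16.5.

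The wide range within the 20S core at E16.5 is set beside the sequence shared between genes, and a link between them was not tested. The 4 lowest core subunits at E16.5 were Psma5 (8.31 ± 5.94 FPKM, SD, n = 3), Psma3 (9.95 ± 4.42), Psmb3 (18.8 ± 4.57) and Psmb5 (26.2 ± 10.6), whereas the other 10 had means between 69.5 and 291 FPKM. Of the 50-base stretches in their transcripts, 55.4%, 22.0%, 55.8% and 57.1% also occur in another annotated gene, pseudogenes mostly, and in the other 10 this share was 0% to 31.5%. Psma4 (31.5%, mean 159 FPKM) and Psmb7 (28.1%, mean 157 FPKM) shared more than Psma3 and were not low. Reads were 50 bases long, so a read from such a stretch has more than 1 possible origin, and how the counting treated it is not given in the sources used here. The levels of these 4 genes are therefore uncertain. The 33 tested members below 5% of shared stretches had a median change of -1.49, and the 19 at or above it had -1.45. The calls were less evenly spread. Of the 33 members 2 (6.06%) were called higher at E16.5, against 8.83% of all genes. Of the 19 members 5 (26.3%) were called, namely Cct7, Psma3, Psmc3ip, Psmd13 and Tcp1. Whether shared sequence had a part in these calls was not tested.

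**Figure D4:**
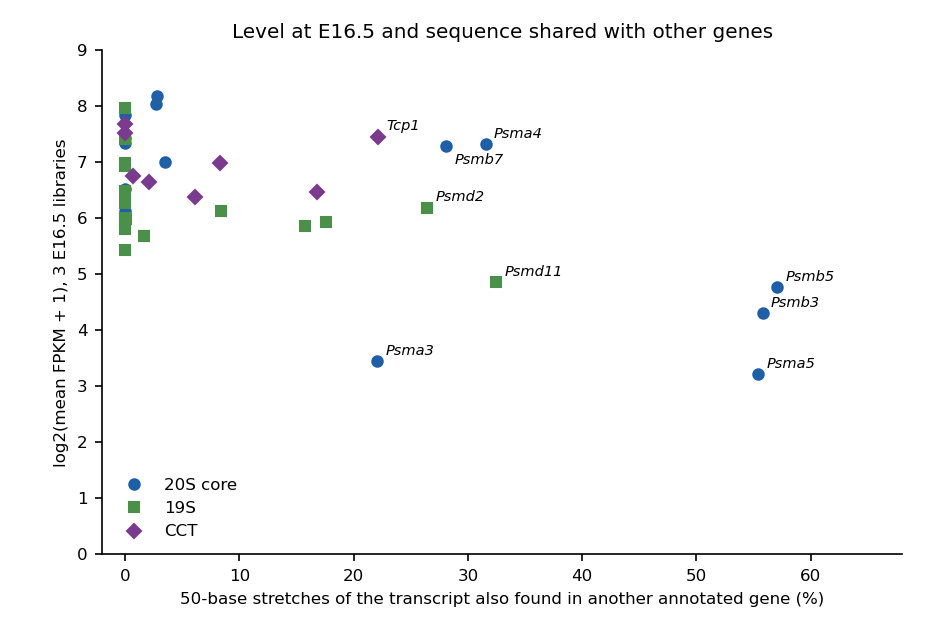
Mean level of each tested 20S, 19S and CCT subunit at E16.5, as log2(mean FPKM + 1), against the percentage of 50-base stretches of its transcript that also occur in another annotated gene. The 3 core subunits above 50% (Psmb5, Psmb3 and Psma5) and Psma3 at 22.0% are the lowest points, while Psma4 and Psmb7 near 30% are not low. Psmb7 shares its stretches with Nek6 alone, which overlaps it on the other strand.

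Genes that work with the proteasome were taken from lists. Among 10 further subunits and assembly factors 2 (20%) were called, both higher at E16.5, against 8.83% of all genes, and the list median of -0.48 lay above that of all genes. Shfm1, which encodes the small lid subunit Sem1, was 349, 269 and 224 FPKM in adult and 1717, 1655 and 1162 FPKM at E16.5 (log2 change -2.43, SE 0.27, adjusted p = 0.00464, called under 14 of 16 alternatives). Its E16.5 level exceeded that of every member of the 19S particle. Pomp, the maturation factor of the core, was 89.0, 153 and 107 FPKM in adult and 271, 340 and 250.5 FPKM at E16.5 (log2 change -1.32, SE 0.29, adjusted p = 0.0324, called under 8 of 16 alternatives). The immunoproteasome genes Psmb8, Psmb9 and Psmb10, which replace the catalytic subunits in immune cells and after interferon, were listed at 0 in all adult libraries. Psmb10 was 7.47, 2.13 and 7.31 FPKM at E16.5 and passed the test (adjusted p = 0.0447), under 6 of 15 alternatives, and not when any 1 library was left out (adjusted p = 0.0597 to 0.113), Psmb8 was 3.44, 3.72 and 1.60 FPKM and did not (adjusted p = 0.0640), and Psmb9 was above 0 in E16.5 replicate 2 alone.

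Nfe2l1, which encodes NRF1, the transcription factor that raises proteasome genes when proteasome activity is short, was higher in adult ChP, the direction opposite to most proteasome genes. It was 115, 125 and 152 FPKM in adult and 42.2, 46.0 and 35.0 FPKM at E16.5. All adult values were above all E16.5 values by a wide margin, and the log2 change of 1.65 passed the test (SE 0.28, adjusted p = 0.0167, called under 10 of 16 alternatives). It was the only one called of the 9 genes tested in the list for NRF1 control, and its relative Nfe2l2, at 30.4, 62.7 and 24.9 FPKM in adult and 47.3, 56.9 and 58.1 FPKM at E16.5, did not pass (adjusted p = 0.385). Of 26 genes for ubiquitin and delivery to the proteasome, 4 (15.4%) were called, all higher at E16.5, against 8.83% of all genes. Ubb, which encodes a chain of ubiquitin units, was 20.7, 74.8 and 18.3 FPKM in adult and 153, 146 and 142 FPKM at E16.5 (log2 change -2.22, adjusted p = 0.0398, called under 6 of 16 alternatives). Rps27a, in which ubiquitin is fused to a ribosomal protein, was listed at 0 in all adult libraries and was 36.3, 10.02 and 22.7 FPKM at E16.5 (adjusted p = 0.0128). As every cell uses this gene, its adult 0 may be a failed estimate.

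Lists of partners and clients of CCT are read beside all genes, of which 8.83% were called higher at E16.5 and 80.6% of whose calls went that way. Prefoldin hands unfolded actin and tubulin to CCT. All 6 of its genes had negative changes, against 72.8% of all genes, with a median of -2.90. Pfdn5 and Pfdn6 (33.3%) were called higher at E16.5. Pfdn5 was 86.0, 63.7 and 86.7 FPKM in adult and 287, 221 and 177 FPKM at E16.5 (log2 change -1.51, adjusted p = 0.0238, called under 9 of 16 alternatives). Of 9 co-chaperones and tubulin cofactors tested, Pdcl3, a phosducin-like regulator of CCT, was called, at 4.75, 2.4 and 0 FPKM in adult and 20.9, 20.2 and 21.8 FPKM at E16.5 (adjusted p = 0.0455, called under 6 of 15 alternatives). Of 19 clients tested 6 (31.6%) were called higher at E16.5 and 1 higher in adult. Actb was 631, 1077 and 731 FPKM in adult and 1864, 1711 and 1614 FPKM at E16.5, and Tuba1a was 18.9, 15.1 and 4.94 FPKM in adult and 319, 262 and 207 FPKM at E16.5. Tuba4a went the other way, at 19.3, 36.3 and 27.0 FPKM in adult and 1.85, 7.10 and 5.36 FPKM at E16.5 (log2 change 2.39, adjusted p = 0.0432, called under 6 of 16 alternatives). Of 18 other cytosolic chaperones Dnajc7 and Ahsa1 (11.1%) were called, both higher at E16.5, and the list median of -0.73 was above that of all genes.

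**Figure D5:**
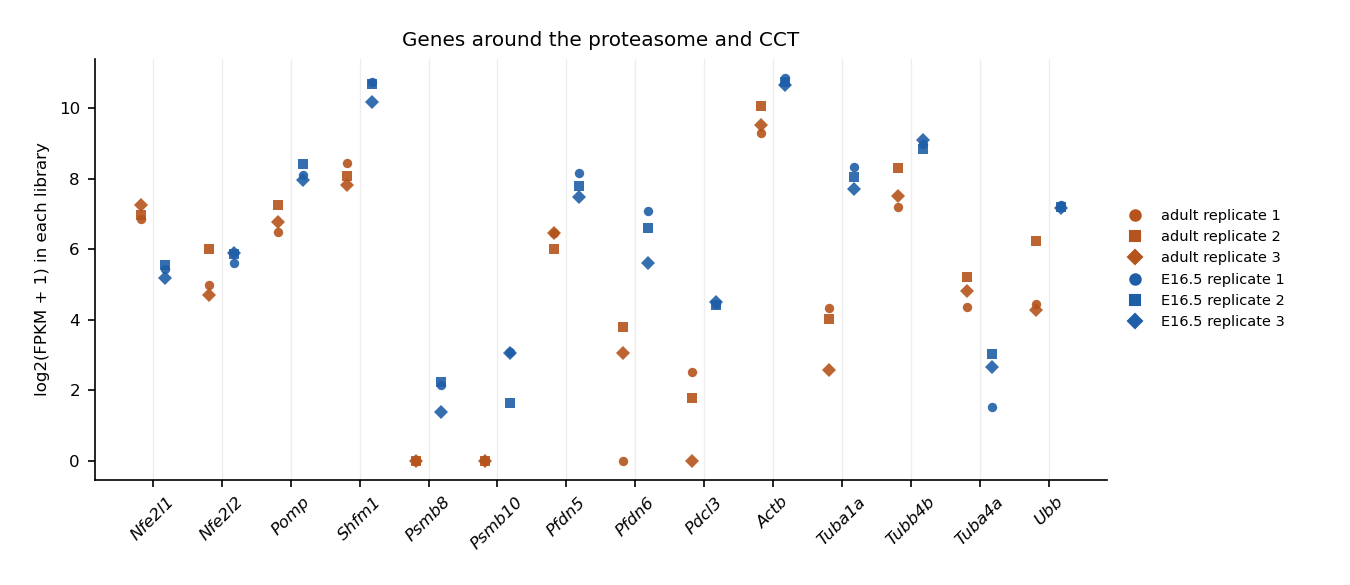
Levels in each library, as log2(FPKM + 1), of genes that regulate, assemble or feed the proteasome and of partners and clients of CCT. Nfe2l1 and Tuba4a lie higher in adult (brown), most others lie higher at E16.5 (blue), and Psmb8 and Psmb10 are at 0 in adult.

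Marker sums of other cell states and types also differed between ages. Calls are given beside the 8.83% of all genes called higher at E16.5 by limma. Counts at an unadjusted p under 0.05 are given beside the 25.9% of all genes that were higher at E16.5 at that threshold. Motile cilia genes summed to 310 to 474 FPKM in adult and 1119 to 1297 FPKM at E16.5, with 4 of 10 (40.0%) called higher at E16.5, cell cycle genes to 29.0 to 55.6 FPKM and 69.5 to 126 FPKM, with 2 of 10 (20%) called, and mesenchymal genes to 20.7 to 23.7 FPKM and 60.0 to 76.3 FPKM, with 1 of 7 (14.3%). Neuronal and progenitor genes summed to 3.38 to 14.1 FPKM in adult and 31.1 to 105 FPKM at E16.5. Of these 0 of 6 were called by limma, and 2 (33.3%) were higher at E16.5 at an unadjusted p under 0.05. Red blood cell genes summed to 0 to 6.49 FPKM in adult and 56.7 to 388 FPKM at E16.5, with 2 of 4 called. Endothelial genes summed to 0.435 to 20.5 FPKM and 12.7 to 40.2 FPKM, and macrophage genes to 0.0695 to 4.63 FPKM and 0.548 to 8.41 FPKM, with Cd68, Aif1, C1qc and Tyrobp at 0 in every library, and these sums overlapped between ages with none of 2 genes called by limma in either list (1 endothelial and 0 macrophage genes at an unadjusted p under 0.05). The part of these cells, of library depth and of Mir6236 in the differences of proteasome and CCT genes was not tested.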

How the data were processed

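The 6 ChP samples were assigned to adult or E16.5 from their titles, 3 to each age. The authors aligned 50-base single-end reads to mm10 with STAR (version 2.4.0 per the labels) and deposited gene FPKM, which divide fragments by transcript length and by mapped reads, from Cuffquant of Cufflinks, 1 column per sample. The annotation release behind the FPKM and the handling of reads with several origins are not given in the sources used here.

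The FPKM were not altered. Genes averaging over 1 FPKM in the 6 samples were tested as log2(FPKM + 1) by limma (version 3.58.1, R version 4.3.3) with an intensity trend and no covariate, and p-values were adjusted by Benjamini-Hochberg over all 11601 genes. The script was checked on simulated data. A list was described by its counts and median beside those of all genes. Sums, ratios and SDs per library were compared by two-sided exact permutation tests. Members and lists were chosen with earlier results of these data known. Values in every sample are given for called members, for the highest and lowest change and the highest level in each role, for paralogue pairs and for members at 0, and for the called or most abundant genes of other lists. Psmb4, Psmb7, Psmd14 and Psme3 were named after their values were seen. Some called genes of other lists are not reported here.

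FPKM carry no read totals. Relative depth and reads per gene were estimated from the steps between low values, assuming fragments of 200 bases. In each library 64.6% to 81.2% of low values lay within 0.1 of a whole read, so no count test was run. Replicate numbers did not pair samples (correlation of deviations 0.00089, 0.044 and 0.015 for equal numbers). Shared sequence is the percentage of 50-base stretches of a transcript in GENCODE vM21 that occur in a transcript of another gene. Promoters are RefSeq windows in GRCm38.p6. Alternatives changed the pseudocount, filter, scaling, trend, replicate block and the libraries used.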

Additional observations from a re-analysis of the deposited data

How the results depend on the processing

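Main values were computed again under 16 alternatives of the fit. The 7 members called higher at E16.5 became 3 with no filter on low values (5.56% of members tested, 5.43% of all genes), 4 with median-ratio scaling (7.69% and 5.69%) and 4 without the limma trend (7.69% and 8.18%). The number was 32 (61.5% and 27.9%) when each library was scaled to the same sum of FPKM, and 15 (28.8% and 11.5%) when Mir6236 was left out of that sum. It was 0 to 19 when 1 library was left out (0% to 36.5% of members, beside 0.14% to 14.7% of all genes). With the replicate block, a fit in which equal replicate numbers are paired although they share only a number, 4 were called (7.69% and 3.9%). No member was called higher in adult under any of these alternatives. The median of all genes was -0.86, and was -0.58 with median-ratio scaling, -1.48 and -0.99 with the same sum with and without Mir6236, and 0.01 with quantile normalization. The proteasome median relative to all genes stayed between -0.85 and -0.39, and that of CCT (-0.55) became -0.18 and 0.041 with a pseudocount of 0.1 and 0.01, -0.98 with quantile normalization, -1.03 over genes above 0 in every sample, and -0.60 to -0.13 when 1 library was left out. The 2 ratios to the 20S sum kept their direction under every alternative tried for them. The count of members whose ages did not overlap was 29 to 37 when a library was left out (55.8% to 71.2%, beside 34.9% to 42.7% of all genes), an alternative chosen after seeing the data, as was the use of adult replicate 2 alone.

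The members that changed sign were all uncalled, and the values under those alternatives follow. With median-ratio scaling Cct5 was at 0.006 and Psme3 at 0.12. With quantile normalization Cct5 was at 0.15, Psma5 at 0.23, Psmd4 at 0.085, Psme3 at 0.16 and Psmg4 at 0.022. With the same sum Cct6a was at -0.82, Psmb2 at -0.52, Psmb5 at -0.46, Psmd3 at -0.75, Psme4 at -0.49 and Psmg2 at -0.28, and without Mir6236 in it Cct6a was at -0.16 and Psmd3 at -0.10. Leaving out 1 library moved Cct5 between -0.74 and 0.052, Cct6a between -0.094 and 0.09, Psmb2 between -0.25 and 0.73, Psmb5 between -0.037 and 0.79, Psmd3 between -0.22 and 0.42, Psme2 between -2.92 and 0.18, Psme3 between -0.43 and 0.016, Psme4 between -0.018 and 0.54, Psmg2 between -1.10 and 1.19, and Psmg4 between -2.43 and 0.13. The cause was not tested. The depth of the adult libraries limits what a value near 0 can show.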

Other observations

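The mitochondrial chaperonin, a relative of CCT in another compartment, gave unequal values for its partners. Hspe1, the lid of that chaperonin, was 4.07, 5.39 and 1.16 FPKM in adult and 154, 82.8 and 91.1 FPKM at E16.5. All adult values were far below all E16.5 values (log2 change -4.69, SE 0.54, limma adjusted p = 0.00506). Hspd1, its barrel, was 19.1, 17.7 and 50.1 FPKM in adult and 26.4, 22.9 and 16.3 FPKM at E16.5, with overlapping ages (log2 change 0.25, SE 0.51, limma adjusted p = 0.755). The difference between both genes was not tested.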
